A study of Danio rerio with 12 samples.

Results

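The wild-type response to ventricle resection rests on 6 RNA-seq libraries of zebrafish heart ventricle, of 12 in the series: 3 libraries of wild-type hearts with the ventricular apex cut away and collected at 7 days post amputation (WT-7dpa), and 3 libraries of wild-type hearts after a sham operation (WT-sham). They were chosen by their labels, with no measured value used. The other 6 libraries came from mvp-/- fish, described as carrying a CRISPR-Cas9 deletion of the whole coding region of mvp, the gene of the major vault protein, at 7 days after the same resection (mvp-7dpa, 3 libraries) and after sham surgery (mvp-sham, 3 libraries). Counts of mvp were low but not 0 in the libraries labelled mvp-/-, with 16.8, 18.1 and 19.7 CPM in mvp-7dpa and 4.66, 5.41 and 4.97 CPM in mvp-sham, against 189, 138 and 136 CPM in WT-7dpa and 176, 194 and 177 CPM in WT-sham (scaling of all 12 libraries), and what those counts come from was not tested. All fish were adults of the AB background, and no closer age is given in the sources used here. The ventricle below the plane of surgery was collected, so that the libraries hold muscle, valve, vessel, epicardial and blood cells together, and the sources do not say how the pooled hearts were divided among libraries. The p-values below therefore measure the spread between these libraries, which may be technical.

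An adult zebrafish heart replaces a resected apex with new muscle over several weeks. The fibrin clot is invaded by leukocytes, the epicardium that wraps the heart is activated and deposits matrix, the endocardium responds across the chamber, and spared heart muscle cells reduce their contractile apparatus in part, re-enter the cell cycle and divide. At the time sampled here, division of muscle cells near the wound is known to be high while inflammatory cells are still present. In bulk tissue, fewer cells of a type and less RNA per cell cannot be told apart.

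Totals ran over 21356163 to 26544507 counts in WT-7dpa and 21357035 to 26684651 counts in WT-sham. One WT-7dpa library stood apart: replicate 1 was over 2-fold above the mean of replicates 2 and 3 in 526 of the 15942 tested genes and over 2-fold below it in 1291, while replicates 2 and 3 were over 2-fold apart in 179. The variation between replicates came to 25.6% in WT-7dpa and 7.85% in WT-sham (biological coefficient of variation). Values are therefore given for each library, in the order of replicates 1, 2 and 3, as counts per 1000000 (CPM) after scaling by trimmed mean of M-values (TMM) among the 6 wild-type libraries, and results that rest on replicate 1 are also given without it. Replicates 2 and 3 were close to each other, with a chi-square of their counts of 2.23 per gene, against 95.8 and 99.7 for pairs with replicate 1. Fits without replicate 1 rest on replicates 2 and 3 only, a choice made with the values known. Calls and p-values from those fits therefore understate the spread in WT-7dpa and are not firmer evidence. WT-sham stood apart in another way: many genes in which it differed from WT-7dpa also differed between it and mvp-sham, and those values follow the wild-type results.

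At 7 dpa 4324 of 15942 tested genes were called higher (27.1%) and 3731 lower (23.4%) at an adjusted p under 0.05. Of these, 2813 were higher and 1406 lower by at least 2-fold, so that large changes were mostly increases. Counts of called list members below are to be read against the shares of 27.1% higher and 23.4% lower. The median log2 fold change (WT-7dpa over WT-sham) over all tested genes was -0.0042, and its median size without regard to sign was 0.53. Without replicate 1, 5660 of 16424 genes were called higher (34.5%) and 5382 lower (32.8%). Among the 8055 genes called with all 6 libraries, 7988 were called the same way without replicate 1 and 0 the other way, and 2580 genes were called only without it. Scaling sets the balance of directions: with library totals alone, 81.0% of called genes were higher, against 53.7% with TMM, and the median of all genes moved by 0.38 on the log2 scale. Small changes of a list are therefore relative to all tested genes, and of the genes named below as lower, myl7, tie1, hk1, fabp3, hadhaa, cdkn1b (ENSDARG00000054271), rfc5, stab1, timd4 and notch1 (ENSDARG00000052094) were not called with library totals alone (log2 fold changes -0.59 to -0.03, adjusted p = 0.052 to 0.817). Another 16 named genes, not called with TMM, were called higher with library totals alone. Among them were kdrl, ldha, lamp2, ckma, cox4i1, tgfb1a and vegfa (ENSDARG00000034700) (log2 fold changes 0.343 to 0.527, adjusted p = 0.00109 to 0.0134).

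**Figure D1:**
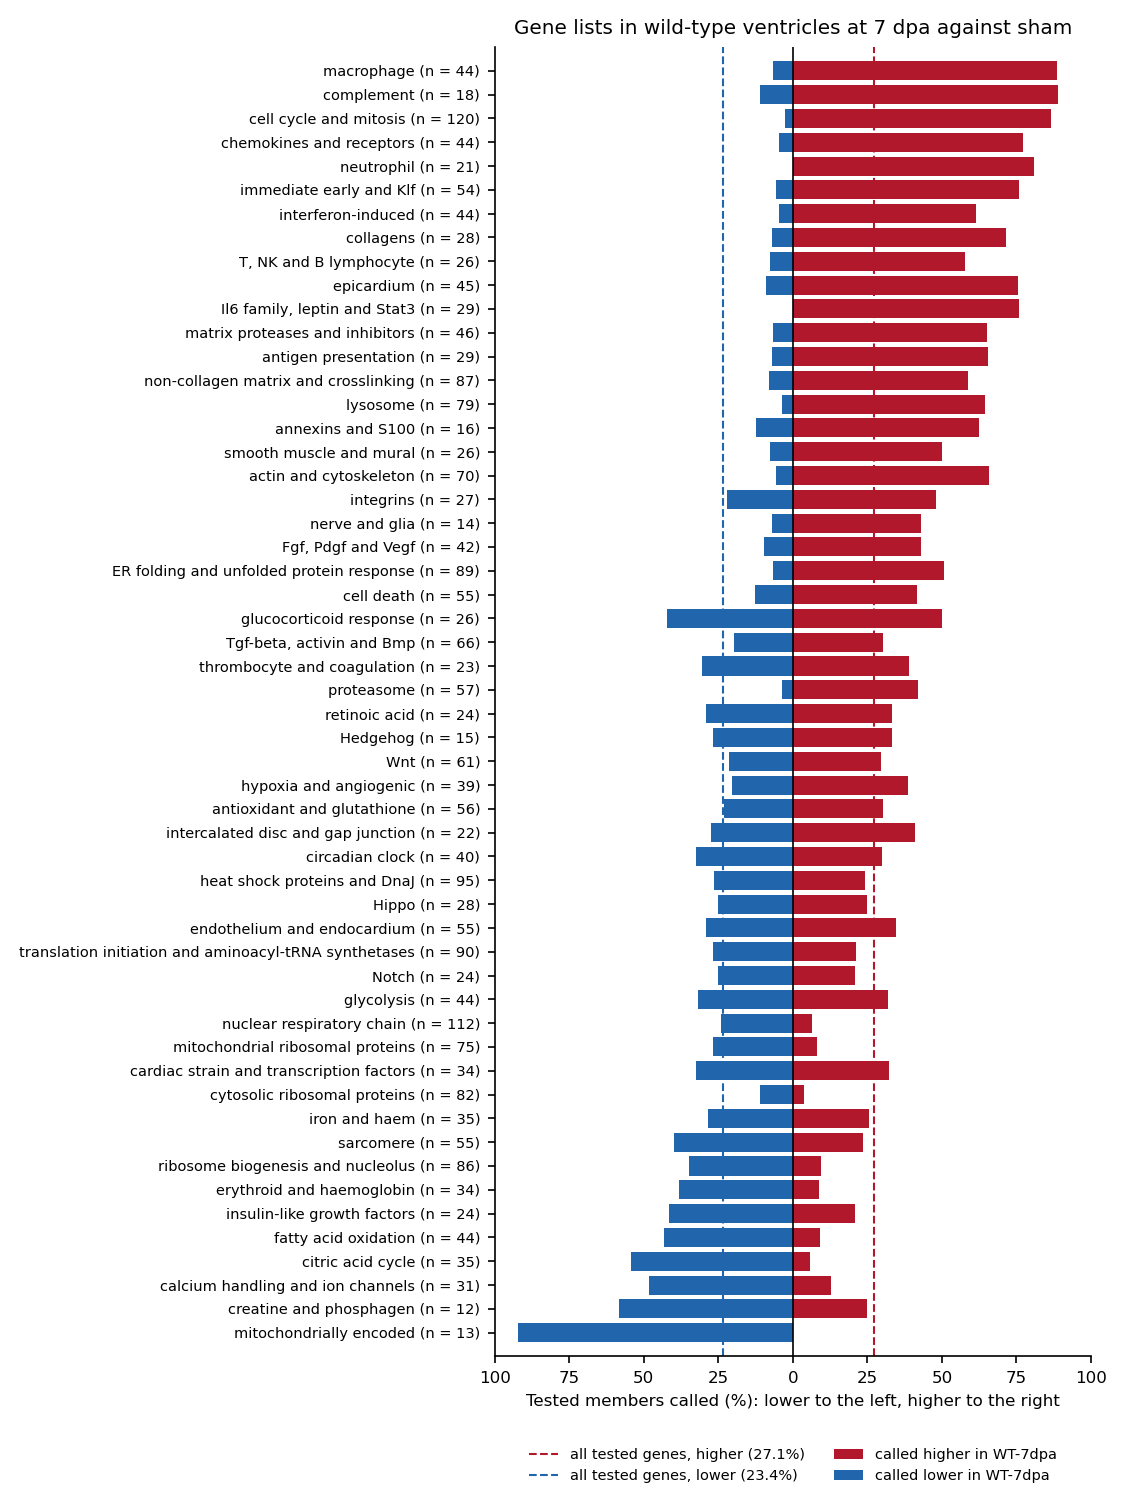
Share of tested members called higher (red, right) and lower (blue, left) at 7 dpa in each gene list with at least 12 tested members (n after the name), in per cent, ordered by the list's median log2 fold change. Dashed lines mark the shares over all tested genes, 27.1% higher and 23.4% lower. Leukocyte, cell cycle, immediate early and matrix lists extend far to the right, and 12 of 13 mitochondrially encoded genes stand at the lower end.

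Marker genes were read in each library against the labelled tissue. No gene in the name table carried the symbol of the ventricular marker vmhc, which does not show that the gene was absent from the counts. Ventricle was therefore not told from other heart chambers. Markers of heart muscle cells summed to 36110, 25720 and 25390 CPM in WT-7dpa, against 39600, 41480 and 37460 CPM in WT-sham. Of the skeletal muscle markers, myog was under 0.1 CPM and both tnnt3 genes under 0.6 CPM in every library, while the calcium release channel ryr1 (ENSDARG00000023797) had 17.8, 17.7 and 16.8 CPM in WT-7dpa, against 43.5, 39.3 and 43.4 CPM in WT-sham and was called lower (log2 fold change -1.27, adjusted p = 3.97e-05). Macrophage markers summed to 439, 922 and 923 CPM in WT-7dpa, against 98.3, 107 and 97.8 CPM in WT-sham, and 11 of 11 tested markers were called higher. Smooth muscle markers came to 742, 412 and 429 CPM in WT-7dpa and to 149.9, 150.2 and 144 CPM in WT-sham, with 5 of 7 tested called higher. Epicardial markers reached 672, 542 and 548 CPM in WT-7dpa, against 456, 460.4 and 450.5 CPM in WT-sham. Most of these sums was podxl, which was not called, with 482, 347 and 341 CPM in WT-7dpa, against 390, 387 and 380 CPM in WT-sham. The other 5 of the 6 epicardial markers were called higher. Endothelial and endocardial markers went the other way, at 389.9, 406 and 410.4 CPM in WT-7dpa and 590.5, 551 and 573 CPM in WT-sham, with 5 of 8 called lower and 0 higher. The longer list of these cells did not share that direction, with 19 of 55 tested members called higher and 16 lower (median log2 fold change -0.07).

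Red cell markers summed to 696, 285 and 297 CPM in WT-7dpa, where replicate 1 was the high library, against 269.5, 298 and 238 CPM in WT-sham. The 4 tested did not pass the test with all 6 libraries (log2 fold changes 0.51 to 0.94, adjusted p = 0.0947 to 0.255), and without replicate 1 slc4a1 (ENSDARG00000012881) and cahz, whose groups did not overlap (as in 61.2% of all tested genes), were called higher (log2 fold changes 0.23 and 0.24, adjusted p = 0.00686 and 0.024). The longer list of red cell genes went the other way, with 13 of 34 tested members called lower and 3 higher (median log2 fold change -0.28). Without replicate 1, 21 of its members were called lower and 5 higher, in a fit that called 32.8% of all tested genes lower and 34.5% higher. Keratins of skin, krt4 and krt5, summed to 668, 459.9 and 454 CPM in WT-7dpa and 292, 292 and 286 CPM in WT-sham, both called higher. The part that body wall tissue, blood or the mix of cells played in the gene results was not tested.

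**Figure D2:**
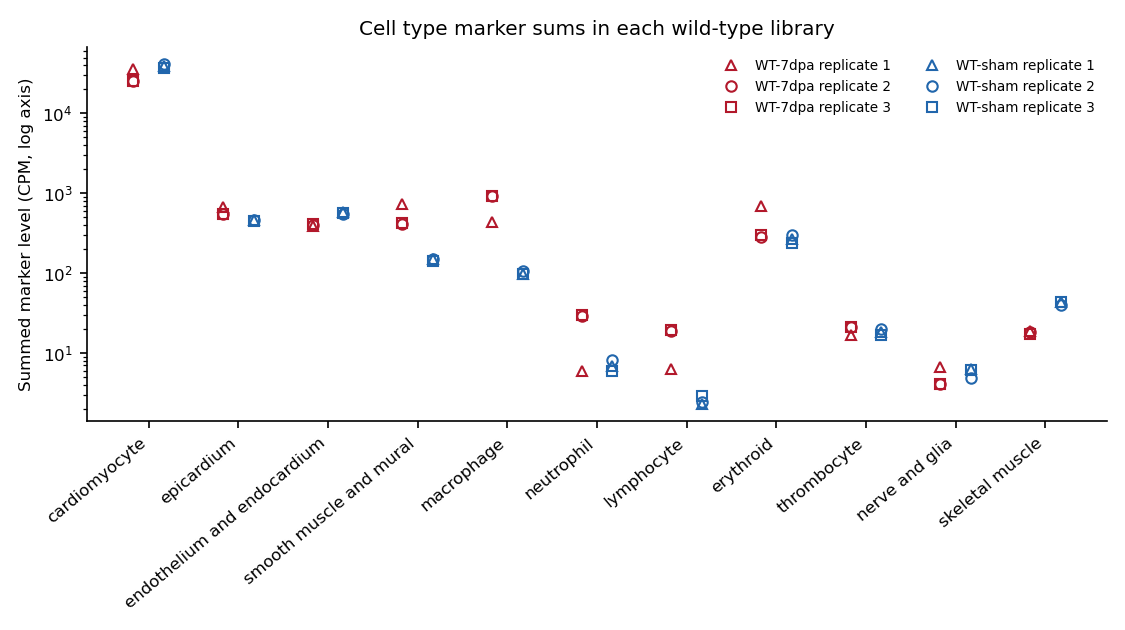
Summed level of fixed marker genes (CPM, log axis) for 11 cell types in each WT-7dpa library (red, left of each pair) and each WT-sham library (blue), with a symbol for each replicate. Macrophage, smooth muscle and lymphocyte sums lie above WT-sham in all 3 WT-7dpa libraries, and replicate 1 (triangle) is the lowest WT-7dpa library for leukocytes and the highest for red cells.

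More genes of the contractile apparatus and of calcium cycling were called lower than higher at 7 dpa. Of 55 tested sarcomere genes, 22 were called lower and 13 higher, and the median log2 fold change of -0.22 turned to 0.16 with library totals alone. Titin, the molecular spring of the sarcomere, had 1829, 1755 and 1668 CPM in WT-7dpa, against 3170, 3104 and 3210 CPM in WT-sham for ttn (ENSDARG00000000563) (log2 fold change -0.85, SE 0.09, adjusted p = 0.000236). The groups did not overlap, as for 61.2% of all tested genes. Cardiac myosin-binding protein mybpc3 and the regulatory light chain myl7 fell less, by 0.77 and 0.62 on the log2 scale (adjusted p = 0.000364 and 0.0124), and myl7 in replicate 1 lay nearer to WT-sham than replicates 2 and 3 did, at 19880, 14400 and 14300 CPM, against 24980, 26890 and 22670 CPM in WT-sham. The call of myl7 was lost without WT-sham replicate 1 or 2 (log2 fold change -0.63 to -0.56, adjusted p = 0.056 to 0.0593). Leiomodin, which nucleates actin filaments, had the largest decrease among the called members, with 41.6, 46.9 and 48.2 CPM in WT-7dpa, against 287, 256 and 284 CPM in WT-sham for lmod2 (ENSDARG00000045634) (log2 fold change -2.60, adjusted p = 4.30e-06).

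Myosin heavy chain genes moved in both directions. The gene myh6 (ENSDARG00000079564) had 7464, 3724 and 3707 CPM in WT-7dpa, against 941, 908 and 917 CPM in WT-sham (log2 fold change 2.43, SE 0.28, adjusted p = 0.000496), while myh7ba had 145, 109 and 110.5 CPM in WT-7dpa, against 312, 325 and 319 CPM in WT-sham (log2 fold change -1.39, adjusted p = 0.000116). The name table gives the symbol myh6 to 3 genes, and which chamber or isoform each encodes is not taken from it here. In myh6 (ENSDARG00000079564) replicate 1 held about the sum of replicates 2 and 3, and without it the log2 fold change was 1.997. Another, myh6 (ENSDARG00000090637), was called lower (log2 fold change -0.548, adjusted p = 0.000775). The low-level myh6 (ENSDARG00000114031) was called higher, with means of 0.807 CPM in WT-7dpa and 0.103 CPM in WT-sham (adjusted p = 0.00911). The abundant myh7 held 2.43, 2.17 and 2.14% of counts in WT-7dpa, against 3.2, 3.18 and 3.19% in WT-sham. Intercalated disc and gap junction genes had 9 of 22 tested members higher and 6 lower (40.9% and 27.3%, against 27.1% and 23.4% of all tested genes). The scaffold genes xirp1 (ENSDARG00000092427) and pdlim5 (ENSDARG00000101777) rose by 3.12 and 2.85 on the log2 scale (adjusted p = 0.000108 and 7.33e-05).

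Calcium handling and ion channel genes had 15 of 31 tested members called lower and 4 higher (median -0.34, 0.036 with library totals alone). The sarcoplasmic calcium pump atp2a2a, which refills the store between beats, had 11640, 7464 and 7469 CPM in WT-7dpa, against 20310, 19130 and 21270 CPM in WT-sham (log2 fold change -1.19, SE 0.19, adjusted p = 0.00142). The calcium release channel ryr2 and the sodium-calcium exchanger slc8a1 (ENSDARG00000013422) fell by 0.90 and 0.94 on the log2 scale (adjusted p = 0.000481 and 0.000412). Pump, release channel and exchanger were lower in every WT-7dpa library than in any WT-sham library, and the groups did not overlap in 61.2% of all tested genes. Calsequestrin casq2, which buffers calcium inside the store, rose instead, with 1222, 784 and 750.3 CPM in WT-7dpa, against 389, 391 and 379 CPM in WT-sham (log2 fold change 1.25, adjusted p = 0.00118). Gap junction genes divided as well: gja1 rose by 1.57, and gja3 and gja5 (ENSDARG00000040065) fell by 1.08 and 0.90 on the log2 scale (adjusted p = 0.00118, 0.0023 and 0.0031).

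The list of cardiac strain and transcription factor genes had 11 of 34 tested members higher and 11 lower (32.4% each, against 27.1% and 23.4% of all tested genes). The natriuretic peptide gene nppb had 727, 959.5 and 1031 CPM in WT-7dpa, against 71.0, 76.1 and 64.8 CPM in WT-sham (log2 fold change 3.68, SE 0.16, adjusted p = 5.81e-06), whereas nppa had 883, 1089 and 1053 CPM in WT-7dpa, against 750.0, 799 and 748 CPM in WT-sham (log2 fold change 0.40, adjusted p = 0.0157). Both are hormones that muscle releases on stretch, and nppa was not called without WT-7dpa replicate 2 or 3 or WT-sham replicate 1 or 3 (log2 fold change 0.34 to 0.37, adjusted p = 0.0546 to 0.0837). The titin-bound stress protein ankrd1 (ENSDARG00000075263) had 42.3, 78.1 and 78.7 CPM in WT-7dpa, against 0.429, 0.657 and 1.03 CPM in WT-sham (log2 fold change 6.54, adjusted p = 2.89e-05). Of the factors that specify heart muscle, gata4 had a log2 fold change of -0.59, hand2 of -0.23 (-0.46 without replicate 1, adjusted p = 2.51e-05) and tbx5 of -0.11, none called (adjusted p = 0.121, 0.255 and 0.683). By contrast tbx5b and the cofactor hopx fell by 2.65 and 1.62 on the log2 scale (adjusted p = 9.95e-05 and 1.30e-05).

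Transcripts encoded in the mitochondrion were lower. Of 13 mitochondrially encoded genes 12 were called lower and 0 higher (median -0.77, -0.39 with library totals alone). Cytochrome oxidase subunit mt-co1 had 10980, 8253 and 8126 CPM in WT-7dpa, against 16160, 16860 and 16040 CPM in WT-sham (log2 fold change -0.84, SE 0.14, adjusted p = 0.00184), and mt-nd4 of complex I fell by 0.98 on the log2 scale (adjusted p = 0.000823). The decrease was smaller in replicate 1, with a list median of -0.51 over the WT-sham mean, than in replicates 2 and 3, at -0.90 and -0.92. Nuclear genes of the respiratory chain moved less: of 112 tested, 27 were lower (24.1%, against 23.4% of all genes) and 7 higher, and the median of -0.13 turned to 0.25 with library totals alone. For example, the ATP synthase subunit atp5f1b had a log2 fold change of -0.20 (-0.36 without replicate 1, adjusted p = 0.000417) and cox4i1 of -0.032, neither called (adjusted p = 0.287 and 0.837).

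Citric acid cycle genes had 35 tested members, 19 lower and 2 higher (54.3% and 5.71%). Fatty acid oxidation genes had 44, 19 lower and 4 higher (43.2% and 9.09%, against 23.4% and 27.1% of all tested genes). The list medians of -0.33 and -0.29 became 0.052 and 0.080 with library totals alone. Citrate synthase cs, the entry enzyme of the cycle, had 1162, 1015 and 979 CPM in WT-7dpa, against 1666, 1606 and 1651 CPM in WT-sham (log2 fold change -0.64, adjusted p = 0.00134). The heart fatty acid carrier fabp3 and the trifunctional protein hadhaa of beta-oxidation fell by 0.57 and 0.57 on the log2 scale (adjusted p = 0.00216 and 0.00242). Against the list, oxct1a, an enzyme of ketone use, had 13.6, 4.30 and 5.70 CPM in WT-7dpa, against 0.429, 0.35 and 0.464 CPM in WT-sham (log2 fold change 4.24, adjusted p = 0.000692).

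Glycolysis had 14 of 44 tested genes higher and 14 lower (31.8% each, against 27.1% and 23.4% of all tested genes). Hexokinase hk2 had 5.78, 36.3 and 34.8 CPM in WT-7dpa, against 1.502, 1.97 and 1.86 CPM in WT-sham (log2 fold change 3.84, SE 0.74, adjusted p = 0.00649), while hk1 fell by 0.54 on the log2 scale (adjusted p = 0.0132). The gene hk1 was not called without WT-sham replicate 1 (log2 fold change -0.54, adjusted p = 0.0553). Both start the pathway by phosphorylating glucose, and in replicate 1 hk2 lay far below the other WT-7dpa libraries. The abundant gapdh had 54200, 37530 and 36200 CPM in WT-7dpa, against 96270, 97150 and 88830 CPM in WT-sham (log2 fold change -1.14, adjusted p = 0.00123), and lactate dehydrogenase ldha had a log2 fold change of 0.046 (adjusted p = 0.721). Muscle creatine kinase genes parted company: ckmb had 21.0, 33.5 and 34.01 CPM in WT-7dpa, against 272, 252 and 314 CPM in WT-sham (log2 fold change -3.24, adjusted p = 2.97e-05), and its paralog ckma had 6321, 6187 and 5981 CPM in WT-7dpa, against 6276, 6120 and 6617 CPM in WT-sham (log2 fold change -0.04, adjusted p = 0.744). Myoglobin mb, the oxygen store of heart muscle, rose by 0.82 on the log2 scale (adjusted p = 0.000401).

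Matrix genes rose across collagens, glycoproteins and the enzymes that crosslink or cut them. Of 28 tested collagen genes 20 were higher and 2 lower (median 1.72), and of 87 other matrix genes 51 were higher and 7 lower (median 0.89). Collagen XII, a fibril-associated collagen, had 32.4, 16.2 and 16.4 CPM in WT-7dpa, against 0.429, 0.394 and 0.928 CPM in WT-sham for col12a1 (ENSDARG00000019601) (log2 fold change 5.22, SE 0.43, adjusted p = 0.000117), and another gene of that symbol, col12a1 (ENSDARG00000078322), rose by 3.71 on the log2 scale (adjusted p = 0.000152). The fibrillar col11a1b had 21.8, 10.02 and 9.80 CPM in WT-7dpa, against 0.429, 0.482 and 0.412 CPM in WT-sham (log2 fold change 4.95, adjusted p = 0.000104). Collagen levels were highest in replicate 1, and without it the median of these genes was 1.42. The median was 1.09 without WT-sham replicate 3 (31 tested genes), and 0.60 with DESeq2 and 0.98 with no filter on low counts, which take in further low genes (54 each). Basement membrane collagen col4a1 did not pass the test (log2 fold change -0.016, adjusted p = 0.954).

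Both fibronectin genes rose. Fibronectin is an adhesive glycoprotein that wound tissue lays down early, and fn1 (ENSDARG00000006526) had 1561, 1150 and 1134 CPM in WT-7dpa, against 155, 145 and 164 CPM in WT-sham (log2 fold change 3.05, SE 0.15, adjusted p = 1.05e-05), while fn1 (ENSDARG00000019815) had 91.7, 75.9 and 78.8 CPM in WT-7dpa, against 4.34, 4.78 and 5.41 CPM in WT-sham (log2 fold change 4.08, adjusted p = 2.48e-06). The hyaluronan link protein hapln1a, known from regenerating zebrafish myocardium, had 222, 114 and 115 CPM in WT-7dpa, against 16.2, 17 and 15.21 CPM in WT-sham (log2 fold change 3.22, adjusted p = 0.000162). In mutants its mean was 102 CPM in mvp-7dpa and 110 CPM in mvp-sham (scaling of all 12 libraries). Periostin postn (ENSDARG00000104267), thrombospondin thbs4 (ENSDARG00000020072) and the microfibril protein mfap2 rose by 3.31, 6.12 and 4.19 on the log2 scale (adjusted p = 0.000101, 9.09e-05 and 0.000108). The lysyl oxidase lox, which crosslinks collagen, had 30.8, 19.2 and 20.1 CPM in WT-7dpa, against 2.25, 2.15 and 1.86 CPM in WT-sham (log2 fold change 3.48, adjusted p = 2.88e-05). In each of these genes the lowest WT-7dpa library exceeded the highest WT-sham library, and the groups did not overlap in 61.2% of all tested genes.

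Proteases and their inhibitors had 30 of 46 tested genes higher and 3 lower (median 1.17). Membrane-type metalloproteinases mmp14 (ENSDARG00000002235) and mmp14 (ENSDARG00000008388) rose by 2.05 and 1.74 on the log2 scale (adjusted p = 0.000652 and 2.86e-05). Among 27 tested integrins, the cell receptors for matrix, 13 were higher and 6 lower (48.1% and 22.2%, against 27.1% and 23.4% of all tested genes). The fibronectin receptor chains itga5 and itgav rose by 0.97 and 1.31, and 1 of the 4 genes named itgb1 moved the other way, with itgb1 (ENSDARG00000104484) lower at -1.35 on the log2 scale (adjusted p = 0.000347, 0.00332 and 9.09e-05).

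Epicardial genes had 34 of 45 tested members higher and 4 lower (median 1.22). Transcription factor genes that mark this layer rose: tcf21 had 6.69, 9.45 and 9.51 CPM in WT-7dpa, against 3.92, 4.51 and 3.71 CPM in WT-sham (log2 fold change 1.08, adjusted p = 0.00219), and tbx18 had 45.8, 26.7 and 30.4 CPM in WT-7dpa, against 15.8, 18.6 and 16.8 CPM in WT-sham (log2 fold change 1.01, adjusted p = 0.00443). The low-level wt1b had 2.38, 2.29 and 3.55 CPM in WT-7dpa, against 0.697, 0.35 and 0.361 CPM in WT-sham (log2 fold change 2.55, adjusted p = 0.000817). No WT-7dpa library overlapped WT-sham in these 3 genes, as in 61.2% of all tested genes. The mural cell receptor pdgfrb, known to mark epicardium-derived cells as well, rose by 1.38 on the log2 scale (adjusted p = 0.000905), while the surface protein podxl had a log2 fold change of 0.016 (adjusted p = 0.934) and of -0.18 without replicate 1, adjusted p = 0.0071.

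Smooth muscle and cytoskeletal genes also rose, in 13 of 26 and 46 of 70 tested members, with 2 and 4 lower. Transgelin tagln (ENSDARG00000045408), an actin-binding protein of smooth muscle, had 485, 186 and 193 CPM in WT-7dpa, against 31.1, 31.5 and 30.9 CPM in WT-sham (log2 fold change 3.21, SE 0.41, adjusted p = 0.00102), so that replicate 1 stood above the other WT-7dpa libraries, and without it the log2 fold change was 2.59. Smooth muscle actin acta2 rose by 0.83 on the log2 scale (adjusted p = 0.000183). Elastin elnb, a marker of the outflow tract, had 0.315, 0.362 and 0.416 CPM in WT-7dpa, against 0.536, 0.526 and 0.619 CPM in WT-sham and was not called (log2 fold change -0.61, adjusted p = 0.14). The cytoplasmic actin actb1 and the leukocyte plastin lcp1 rose by 1.81 and 2.65 on the log2 scale (adjusted p = 0.0011 and 0.000355), with replicate 1 lowest of the 3 WT-7dpa libraries in both.

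Endothelial and endocardial genes had 19 of 55 tested genes higher and 16 lower (34.5% and 29.1%, against 27.1% and 23.4% of all tested genes). By at least 2-fold, 12 were higher and 4 lower. The receptor tie1 and the clotting carrier vwf fell by 0.54 and 0.96 on the log2 scale (adjusted p = 0.00101 and 0.00046), and kdrl, the Vegf receptor of vessels, had a log2 fold change of 0.039 (adjusted p = 0.719). The vessel-guiding peptide apln had 72.2, 85.0 and 80.0 CPM in WT-7dpa, against 181, 183 and 196 CPM in WT-sham (log2 fold change -1.24, adjusted p = 5.11e-05). E-selectin sele (ENSDARG00000009123), which catches leukocytes on inflamed endothelium, went the other way, with 39.8, 105 and 108 CPM in WT-7dpa, against 10.2, 9.42 and 10.9 CPM in WT-sham (log2 fold change 3.05, adjusted p = 0.000968).

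Coagulation genes moved far in both directions. The clot-stabilising transglutaminase chain f13a1 is listed as 2 genes, and f13a1 (ENSDARG00000045453) had 778, 206 and 202 CPM in WT-7dpa, against 0.161, 0.131 and 0.309 CPM in WT-sham (log2 fold change 10.93, SE 0.99, adjusted p = 0.0004), with a log2 fold change of 9.96 without replicate 1. Coagulation factor f8 had 18.1, 26.6 and 26.4 CPM in WT-7dpa, against 192, 192 and 188 CPM in WT-sham (log2 fold change -3.01, adjusted p = 1.21e-05), and factor f7 (ENSDARG00000100782) fell by 3.68 on the log2 scale (adjusted p = 2.90e-06). Thrombocyte surface genes itga2b and gp1bb did not pass the test (log2 fold changes 0.49 and -0.38, adjusted p = 0.141 and 0.198). Without replicate 1 they went apart, to 0.73 and -0.67 (adjusted p = 7.52e-06 and 0.000693). Over the list of 23 tested genes 9 were higher and 7 lower (39.1% and 30.4%, against 27.1% and 23.4% of all tested genes).

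Leukocyte genes rose, and they rose far more in replicates 2 and 3 than in replicate 1. Macrophage genes had 39 of 44 tested members higher and 3 lower, with a median of 2.95, and the medians over the WT-sham mean were 1.86, 3.2 and 3.24 in the 3 WT-7dpa libraries. The pore-forming mpeg1 (ENSDARG00000055290), a macrophage marker in zebrafish, had 79.0, 226 and 224 CPM in WT-7dpa, against 25.2, 23.4 and 24.8 CPM in WT-sham (log2 fold change 2.85, SE 0.40, adjusted p = 0.00154). The lineage factor spi1 and the scavenger receptor marco rose by 2.99 and 3.01 on the log2 scale (adjusted p = 0.00206 and 4.54e-05). Even replicate 1 exceeded every WT-sham library in these genes, and the groups did not overlap in 61.2% of all tested genes. The 3 lower members were slc40a1, stab1 and timd4, of which slc40a1, the iron exporter, had 17.9, 18.9 and 18.6 CPM in WT-7dpa, against 52.6, 49.8 and 51.0 CPM in WT-sham (log2 fold change -1.47, adjusted p = 1.58e-05). These 3 are known from tissue-resident macrophages in mammals.

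Most listed neutrophil and lymphocyte genes rose from low levels, while the granule genes npsn and lyz, which define neutrophils, did not. Of 21 tested neutrophil genes 17 were higher and 0 lower, and the oxidase subunit ncf1, which other phagocytes also make, had 2.94, 22.8 and 21.9 CPM in WT-7dpa, against 1.66, 1.45 and 1.65 CPM in WT-sham (log2 fold change 3.32, adjusted p = 0.0132, and 0.0639 with no filter on low counts). A granule protein that defines zebrafish neutrophils, npsn, had 0.28, 2.01 and 1.92 CPM in WT-7dpa, against 3.11, 3.02 and 2.58 CPM in WT-sham and did not pass the test (log2 fold change -1.05, adjusted p = 0.159), while without replicate 1 it was called lower (log2 fold change -0.58, adjusted p = 0.0161). Lysozyme lyz had 1, 1 and 6 counts in WT-7dpa, against 7, 19 and 6 counts in WT-sham, too few to test. Lymphocyte genes had 15 of 26 higher and 2 lower. The kinase zap70 of T-cell receptor signalling had 3.29, 9.77 and 9.51 CPM in WT-7dpa, against 0.268, 0.394 and 0.309 CPM in WT-sham (log2 fold change 4.5, adjusted p = 0.000391), and the immunoglobulin heavy chain ighm had 11, 148 and 155 CPM in WT-7dpa, against 1.66, 2.06 and 1.55 CPM in WT-sham (log2 fold change 5.88, adjusted p = 0.00646). In replicate 1 both lay below the other WT-7dpa libraries and above WT-sham.

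Complement and chemokine genes followed. Complement had 16 of 18 tested genes higher and 2 lower (median 2.40). The central component c3a.1 had 16.7, 93.4 and 91.9 CPM in WT-7dpa, against 1.66, 1.75 and 1.55 CPM in WT-sham (log2 fold change 5.34, SE 0.77, adjusted p = 0.00229), and properdin cfp, which stabilises the convertase, had 94.1, 131 and 143 CPM in WT-7dpa, against 5.42, 5.65 and 5.46 CPM in WT-sham (log2 fold change 4.47, adjusted p = 4.53e-06). The terminal components split, with c7a higher by 1.66 and c7b lower, at -3.60 on the log2 scale (adjusted p = 3.92e-05 and 9.80e-06). Of 44 chemokine and receptor genes 34 were higher and 2 lower (median 2.26). The receptor cxcr4 (ENSDARG00000041959) rose by 3.13 on the log2 scale, as did ccl25b by 1.70 (adjusted p = 1.62e-05 and 2.41e-05), and ccl34b.8 had 3.25, 18.9 and 17.3 CPM in WT-7dpa, against 0.215, 0.0438 and 0.206 CPM in WT-sham (log2 fold change 6.41, adjusted p = 0.00185).

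The interleukin 6 family and its Stat3 relay had 22 of 29 tested genes higher and 0 lower (75.9% higher, against 27.1% of all tested genes). The cytokine genes il6, il11a, lepb, tnfa and il1b of this list had too few counts to test. For il6 there were 1, 15 and 19 counts in WT-7dpa, against 0, 0 and 1 counts in WT-sham. Feedback inhibitor socs3 (ENSDARG00000025428) had 53.2, 92.3 and 90.4 CPM in WT-7dpa, against 5.42, 6.66 and 5.52 CPM in WT-sham (log2 fold change 3.74, adjusted p = 3.47e-05), and the inflammatory transcription factor cebpb had 54.1, 164 and 164 CPM in WT-7dpa, against 9.49, 8.10 and 7.32 CPM in WT-sham (log2 fold change 3.94, adjusted p = 0.000778). The transducer stat3 itself had 11.0, 28.2 and 28.8 CPM in WT-7dpa, against 22.6, 21.9 and 26.2 CPM in WT-sham and was not called (log2 fold change -0.056, adjusted p = 0.904). Replicate 1 was the lowest of the 6 libraries for it, and without it stat3 was called higher (log2 fold change 0.26, adjusted p = 0.0129). Lysosomal genes had 51 of 79 tested members higher and 3 lower. Among them the protease lgmn had 192, 552 and 549 CPM in WT-7dpa, against 130.4, 124 and 123 CPM in WT-sham, and cathepsin ctsd had 239, 544 and 539.9 CPM in WT-7dpa, against 113, 117 and 105 CPM in WT-sham (log2 fold changes 1.78 and 1.98, adjusted p = 0.00857 and 0.00169). The membrane protein lamp2 was not called, with a log2 fold change of -0.011 (adjusted p = 0.915, and 0.372 with library totals alone, adjusted p = 0.00457).

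Interferon-induced genes were high in replicates 2 and 3 and close to WT-sham in replicate 1. Of 44 tested, 27 were higher and 2 lower (median 1.75), and the library medians over the WT-sham mean were 0.20, 1.77 and 1.92. The ubiquitin-like isg15 had 9.66, 61.4 and 63.5 CPM in WT-7dpa, against 3.92, 2.94 and 3.25 CPM in WT-sham (log2 fold change 3.74, SE 0.75, adjusted p = 0.00791). The regulator irf7 had 7.28, 106 and 106 CPM in WT-7dpa, against 5.53, 5.17 and 6.70 CPM in WT-sham (log2 fold change 3.66, adjusted p = 0.0229), and the antiviral GTPase mxb had 1.12, 46.3 and 45.3 CPM in WT-7dpa, against 0.161, 0.175 and 0.155 CPM in WT-sham (log2 fold change 7.51, adjusted p = 0.0132). For these genes replicate 1 lay nearer to WT-sham than to its fellow libraries. The call of irf7 was lost without WT-7dpa replicate 2 or 3 or WT-sham replicate 1, 2 or 3 (log2 fold change 3.29 to 3.76, adjusted p = 0.0527 to 0.0813), and mxb was not called with no filter on low counts or with voom (adjusted p = 0.059 and 0.103). Without replicate 1 the list had 37 genes higher and 1 lower, in a fit that called 34.5% of all tested genes higher and 32.8% lower.

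Antigen presentation genes had 19 of 29 tested members higher and 2 lower. The class II chaperones cd74a and cd74b rose in all 3 WT-7dpa libraries, with 476, 682 and 678 CPM in WT-7dpa, against 143, 145 and 139.6 CPM in WT-sham for cd74a (log2 fold change 2.1, adjusted p = 4.13e-05). Class I gene mhc1uba had 56.0, 209.8 and 211 CPM in WT-7dpa, against 6.76, 7.58 and 6.70 CPM in WT-sham (log2 fold change 4.5, adjusted p = 0.00116). The shared class I light chain b2m was not called with all 6 libraries (log2 fold change 0.21, adjusted p = 0.243, and 0.34 without replicate 1, adjusted p = 0.000299). Class II gene mhc2dab was at 0 counts in replicate 1, with 0, 49.1 and 51.2 CPM in WT-7dpa, against 8.58, 7.54 and 6.75 CPM in WT-sham, and was not called (log2 fold change 2.13, adjusted p = 0.248, and 2.71 without replicate 1, adjusted p = 7.23e-14). Histocompatibility genes vary between individuals, and reads of near-identical copies may be shared among them.

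Cell cycle genes rose as a block and alike in the 3 WT-7dpa libraries. Of 120 tested genes 104 were higher and 3 lower (median 2.30), and the library medians over the WT-sham mean were 2.04, 2.08 and 2.13. The mitotic kinase cdk1 had 22.6, 25.8 and 26.3 CPM in WT-7dpa, against 1.82, 2.54 and 1.96 CPM in WT-sham (log2 fold change 3.55, SE 0.16, adjusted p = 6.39e-06), and the proliferation marker mki67 had 14.9, 32.2 and 29.8 CPM in WT-7dpa, against 3.86, 3.24 and 2.53 CPM in WT-sham (log2 fold change 2.997, adjusted p = 0.000348). Replication licensing gene mcm5, the mitotic cyclin ccnb1 and the anaphase activator cdc20 rose by 2.59, 3.21 and 4.49 on the log2 scale (adjusted p = 1.05e-05, 4.36e-05 and 9.99e-05). The 3 lower genes were the cell cycle inhibitors cdkn1ca and cdkn1b (ENSDARG00000054271) and the clamp loader rfc5, of which cdkn1ca had 4.24, 1.53 and 1.601 CPM in WT-7dpa, against 8.15, 7.40 and 7.42 CPM in WT-sham (log2 fold change -1.64, adjusted p = 0.00885). The inhibitor cdkn1a rose, by 1.97 on the log2 scale (adjusted p = 0.000172), and the cyclin ccnd1 was not called with replicate 1 (log2 fold change 0.41, adjusted p = 0.157, and 0.62 without replicate 1, adjusted p = 1.45e-05). Which cells divided cannot be read from bulk tissue.

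Most genes for making ribosomes were not called. Of 82 tested cytosolic ribosomal protein genes 3 were higher and 9 lower (3.66% and 11.0%), and of 75 mitochondrial ones 6 were higher and 20 lower (8.0% and 26.7%). Their medians were -0.14 and -0.13 (0.25 and 0.26 with library totals alone). Of 86 nucleolar genes 8 were higher and 30 lower (9.3% and 34.9%, median -0.26, 0.13 with library totals alone). Over all tested genes the shares were 27.1% higher and 23.4% lower. The nucleolar helper nop14 had 3.57, 4.63 and 4.099 CPM in WT-7dpa, against 17.5, 16.6 and 18.9 CPM in WT-sham (log2 fold change -2.11, adjusted p = 2.91e-05). Growth regulator myc (ENSDARG00000045695) rose by 2.08 on the log2 scale, and myc (ENSDARG00000007241) was not called at 0.27 (adjusted p = 0.00195 and 0.205). The translation repressor eif4ebp1 had 529.6, 429 and 425 CPM in WT-7dpa, against 1119, 1180 and 1157 CPM in WT-sham (log2 fold change -1.32, adjusted p = 8.88e-05).

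Protein folding and breakdown genes leaned upward. Endoplasmic reticulum folding genes had 45 of 89 tested members higher and 6 lower, and the proteasome 24 of 57 higher and 2 lower. The chaperone hspa5 had 242, 496 and 513 CPM in WT-7dpa, against 159, 169 and 134 CPM in WT-sham (log2 fold change 1.44, adjusted p = 0.00453), with replicate 1 the lowest WT-7dpa library. Both lower proteasome genes were activators of the symbol psme4, and psme4 (ENSDARG00000087911) had 13.8, 14.0 and 15.9 CPM in WT-7dpa, against 50.7, 49.3 and 54.0 CPM in WT-sham (log2 fold change -1.82, adjusted p = 1.40e-05). Heat shock genes had 23 of 95 higher and 25 lower (24.2% and 26.3%), near the 27.1% and 23.4% of all tested genes. Inducible hspa1b had 159.8, 124 and 116 CPM in WT-7dpa, against 4.72, 5.21 and 4.28 CPM in WT-sham (log2 fold change 4.81, SE 0.16, adjusted p = 2.90e-06), and hsp90aa1.1, a myosin-folding chaperone of muscle in zebrafish, had 2778, 1578 and 1568 CPM in WT-7dpa, against 748, 762 and 747 CPM in WT-sham (log2 fold change 1.39, adjusted p = 0.00171).

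Immediate early genes, which cells switch on within minutes of a stimulus, and their Klf relatives had 41 of 54 tested members higher and 3 lower (median 1.75), and the library medians over the WT-sham mean were 1.58, 1.65 and 1.73. The stress factor atf3 had 198, 196 and 188 CPM in WT-7dpa, against 3.27, 3.42 and 2.78 CPM in WT-sham (log2 fold change 5.94, SE 0.11, adjusted p = 3.79e-07). Of the AP-1 subunits, junb (ENSDARG00000104773) had 239, 243 and 245 CPM in WT-7dpa, against 20.9, 21.6 and 19.9 CPM in WT-sham (log2 fold change 3.54, adjusted p = 8.11e-07), and fosl1 rose by 4.52 on the log2 scale (adjusted p = 0.000162). The flow-responsive klf2a and its relative klf6 rose by 1.46 and 1.49 (adjusted p = 7.00e-05 and 1.23e-05), and 3 Klf genes fell, klf11 (ENSDARG00000013794), klf11 (ENSDARG00000030844) and klf12 (ENSDARG00000032197). Clock genes had 12 of 40 tested members higher and 13 lower (30.0% and 32.5%, against 27.1% and 23.4% of all tested genes). The clock repressor per1 (ENSDARG00000012499) had 71.6, 55.8 and 56.5 CPM in WT-7dpa, against 23.8, 21.4 and 25.5 CPM in WT-sham (log2 fold change 1.38, adjusted p = 0.000127), and cry3b had 3.25, 7.64 and 8.81 CPM in WT-7dpa, against 32.2, 31.8 and 32.3 CPM in WT-sham (log2 fold change -2.29, adjusted p = 0.00116). Glucocorticoid targets included fkbp5, with 16.4, 27.3 and 28.7 CPM in WT-7dpa, against 4.29, 4.64 and 6.03 CPM in WT-sham (log2 fold change 2.27, adjusted p = 0.00027), and foxo3a, lower at -2.03 on the log2 scale (adjusted p = 3.17e-05), and 24 of 26 tested targets were called, 13 higher and 11 lower. For most called members of these 3 lists the mvp-sham mean was nearer to WT-7dpa than to WT-sham on a log scale, with the counts further on. The hours of surgery and collection are not given in the sources used here.

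**Figure D3:**
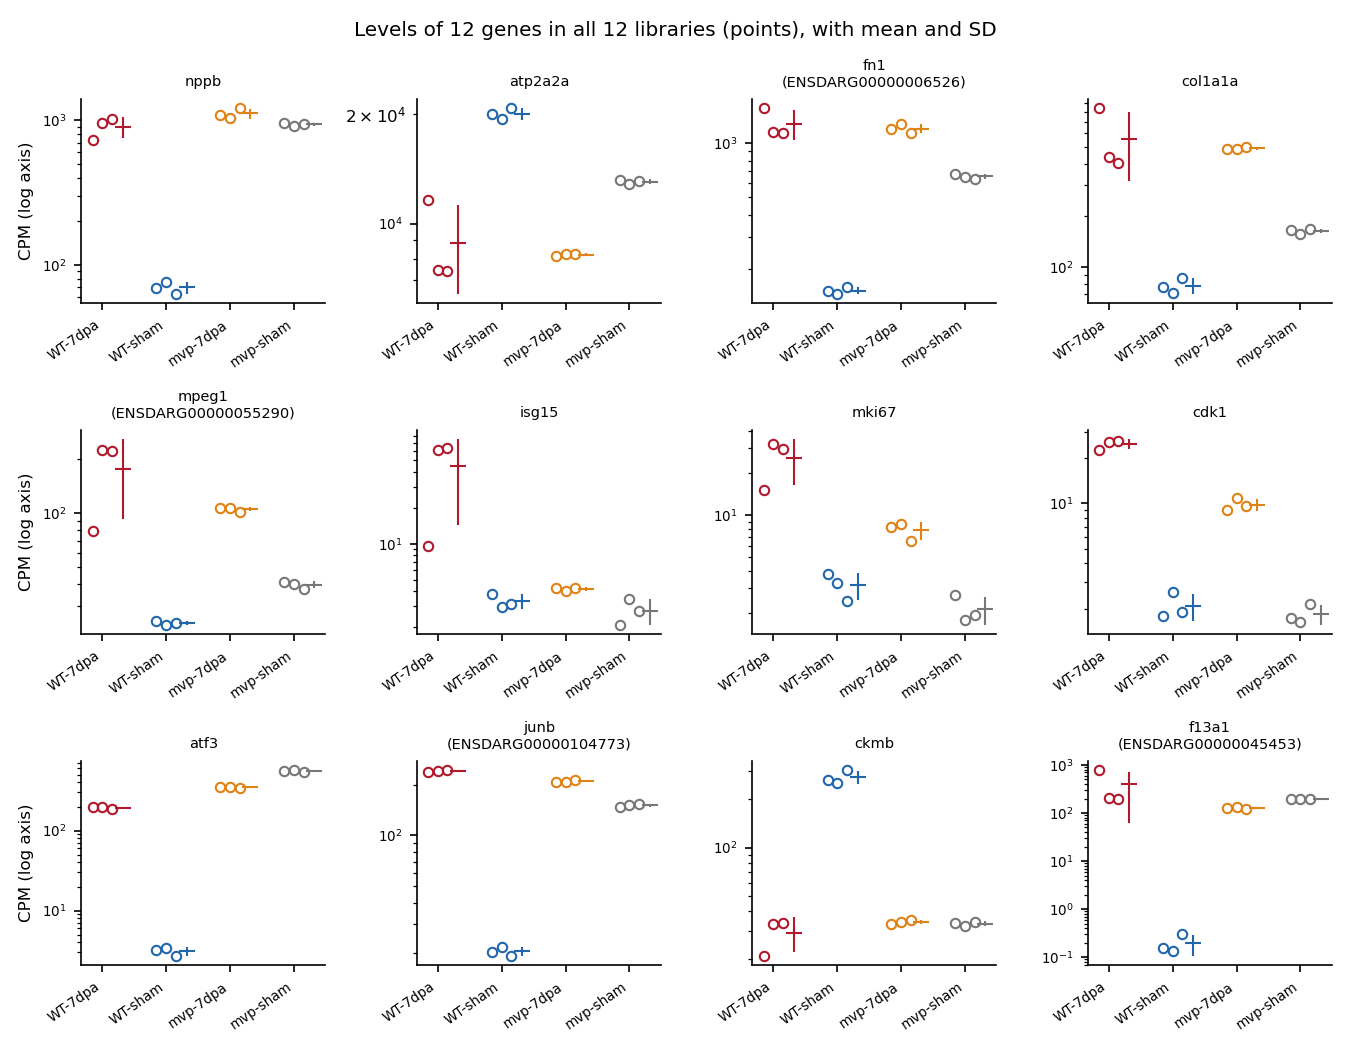
Levels of 12 genes (CPM, log axis, TMM scaling of all 12 libraries) in each library of WT-7dpa, WT-sham, mvp-7dpa and mvp-sham (points), with the mean and SD of each group of 3 beside them. For atf3, junb, nppb and ckmb the mvp-sham mean is nearer to WT-7dpa than to WT-sham, while for cdk1 and isg15 the mvp-sham points lie with WT-sham. For atf3 the mvp-sham mean is the highest, at 559 CPM against 194 CPM in WT-7dpa, and for junb it is 151 CPM against 242 CPM.

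In the signalling families some ligands, receptors and targets rose and others fell. Tgf-beta, activin and Bmp genes had 20 of 66 tested members higher and 13 lower (30.3% and 19.7%), close to the 27.1% and 23.4% of all tested genes. The activin subunit inhba (ENSDARG00000012671) had 11.0, 10.4 and 11.6 CPM in WT-7dpa, against 2.36, 2.41 and 2.99 CPM in WT-sham (log2 fold change 2.08, adjusted p = 4.62e-05), and tgfb3 rose by 0.65 on the log2 scale, with tgfb1a not called at 0.12 (adjusted p = 0.00243 and 0.346). Cardiac bmp10 (ENSDARG00000109233), a ligand made by heart muscle, had 49.2, 49.1 and 51.0 CPM in WT-7dpa, against 171, 179 and 159.9 CPM in WT-sham (log2 fold change -1.77, adjusted p = 8.30e-06), and its relative bmp10 (ENSDARG00000061769) fell by 1.73 on the log2 scale (adjusted p = 0.0013). The matricellular target ccn2 had 21.8, 14.4 and 15.4 CPM in WT-7dpa, against 2.52, 2.28 and 2.37 CPM in WT-sham (log2 fold change 2.85, adjusted p = 3.63e-05).

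Neuregulin nrg1, a mitogen of zebrafish heart muscle, had 1.08, 1.85 and 1.25 CPM in WT-7dpa, against 3.54, 2.58 and 3.25 CPM in WT-sham (log2 fold change -1.17, adjusted p = 0.00768), and its receptor erbb2 was not called (log2 fold change -0.37, adjusted p = 0.0811, and -0.55 without replicate 1, adjusted p = 0.000199). The Egf-like ligands hbegf and hbegfa rose by 2.16 and 1.56 on the log2 scale (adjusted p = 0.000342 and 0.000391). Ligands of 1 receptor family thus moved in both directions. Platelet-derived growth factor pdgfa (ENSDARG00000098578) had 4.17, 4.18 and 4.003 CPM in WT-7dpa, against 1.18, 0.92 and 0.67 CPM in WT-sham (log2 fold change 2.15, adjusted p = 0.000283), and vegfc of lymphatic growth rose by 1.305 on the log2 scale (adjusted p = 0.00155). The gene vegfa (ENSDARG00000034700) was not called (log2 fold change 0.15, adjusted p = 0.252). Fgf, Pdgf and Vegf genes together had 18 of 42 higher and 4 lower.

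Wnt genes had 18 of 61 tested members higher and 13 lower (29.5% and 21.3%), near the 27.1% and 23.4% of all tested genes. The Wnt genes furthest up were secreted modulators. The inhibitors notum2 and dkk1b rose by 5.72 and 3.25 on the log2 scale (adjusted p = 0.000107 and 0.000335), and the enhancer rspo3 had 48.0, 48.0 and 46.3 CPM in WT-7dpa, against 11.2, 9.02 and 9.74 CPM in WT-sham (log2 fold change 2.25, adjusted p = 8.95e-06). Notch genes had 5 of 24 higher and 6 lower. The receptors notch1 (ENSDARG00000052094) and notch1 (ENSDARG00000103554) fell by 0.97 and 1.11 and the target hey2 by 0.87 on the log2 scale (adjusted p = 0.004, 0.00344 and 0.00136). Insulin-like growth factor genes had 5 of 24 higher and 10 lower, among them igf2b, a growth factor of the zebrafish heart, higher by 0.37, and the receptor igf1r (ENSDARG00000034434), lower at -1.12 (adjusted p = 0.0132 and 0.00125). The gene igf2b was not called without WT-sham replicate 2 (log2 fold change 0.32, adjusted p = 0.0578). Hippo genes had 7 of 28 higher and 7 lower, Hedgehog 5 of 15 higher and 4 lower, and retinoic acid genes 8 of 24 higher and 7 lower.

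Some changes lay outside these systems. Apolipoprotein apoeb, a lipid carrier, had 92.5, 79.4 and 78.2 CPM in WT-7dpa, against 6.44, 7.01 and 5.16 CPM in WT-sham (log2 fold change 3.75, SE 0.14, adjusted p = 4.30e-06), and transferrin tfa, the iron carrier of plasma, had 203, 247 and 252 CPM in WT-7dpa, against 29.3, 29.2 and 26.7 CPM in WT-sham (log2 fold change 3.04, adjusted p = 4.30e-06). Transferrin is made by liver in many vertebrates, and the other liver markers fixed for the check, fabp10a and apoa1b, had too few counts to test. Haem oxygenase hmox1 and thioredoxin txnb rose by 1.32 and 3.93 on the log2 scale (adjusted p = 5.00e-05 and 4.30e-06). Annexins and S100 genes, which bind calcium and membranes, had 10 of 16 tested members higher and 2 lower, and anxa2 had 1870, 2453 and 2419 CPM in WT-7dpa, against 1002, 1069 and 930.0 CPM in WT-sham (log2 fold change 1.17, adjusted p = 0.000303). Of 55 cell death genes 23 were higher and 7 lower (41.8% and 12.7%, against 27.1% and 23.4% of all tested genes). The death inhibitor bcl2 fell by 2.11 on the log2 scale (adjusted p = 0.000126).

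Grouping genes by the letters of their symbols gave 188 families of at least 10 tested members, chosen by no pathway list. The 6 with the highest share called higher were the ccl chemokines (14 of 16), the chst sulfotransferases (10 of 12), the cxcl chemokines (9 of 11), the mcm genes of the replication helicase (8 of 10), the anxa annexins (8 of 11) and the col collagens (20 of 28). Sulfotransferases of the chst family add sulfate to matrix and cell surface glycans and were on no list above. The highest shares called lower were in dcaf, adaptors of ubiquitin ligases (6 of 10), and kmt histone methyltransferases (6 of 11). Next came atxn ataxins (7 of 13), utp factors of ribosome assembly (5 of 10) and the asb ubiquitin ligase adaptors (10 of 21). The prdm, myh, tcf and chd genes tied for the sixth place at 45.5% each. Of 11 tested members each, myh had 5 called higher as well, tcf 4, chd 2 and prdm 1. The large znf family, not among these, had 71 of 190 lower and 11 higher (37.4% and 5.79%). Over all tested genes the shares were 27.1% higher and 23.4% lower.

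Among the 15 genes that rose most, 4 had 0 counts in all 3 WT-sham libraries, and their increase is a lower bound set against 3 counts per library. Class II genes mhc2dgb and mhc2dga were at least 206-fold and 152-fold higher, with 25.2, 31.5 and 34.6 CPM and 14.5, 26.0 and 26.8 CPM in WT-7dpa. The gene morn2 was at least 148-fold higher, with 27.3, 19.2 and 19.2 CPM in WT-7dpa, and f13a1 (ENSDARG00000094832) at least 73.9-fold higher, with 19.5, 6.24 and 7.04 CPM in WT-7dpa. A further 5 genes had 1 to 3 counts over the WT-sham libraries together: igl4v8, mhc2dhb, nppal, taco1 and tcnbb. Of these, nppal, a natriuretic peptide-like gene, had 16.8, 23.1 and 24.1 CPM in WT-7dpa, against 0, 0 and 0.0516 CPM in WT-sham, and mhc2dhb had 48.0, 55.2 and 59.9 CPM in WT-7dpa, against 0, 0.131 and 0 CPM in WT-sham.

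Several of the 15 were high in replicates 2 and 3 and low in replicate 1. The gene grna.2 had 4.06, 1285 and 1254 CPM in WT-7dpa, against 0.805, 0.876 and 0.928 CPM in WT-sham, and grna.1 had 26.1, 301 and 291 CPM in WT-7dpa, against 0.376, 0.131 and 0.206 CPM in WT-sham. The itaconate enzyme acod1, made by activated myeloid cells, had 1.82, 92.8 and 90.5 CPM in WT-7dpa, against 0.215, 0.307 and 0.464 CPM in WT-sham, and the amino acid oxidase il4i1 had 0.595, 46.6 and 52.5 CPM in WT-7dpa, against 0.107, 0.175 and 0.309 CPM in WT-sham. The light chain segment igl4v8, with 1 or fewer counts in each WT-sham library, had 0.805, 84.6 and 66.6 CPM in WT-7dpa. The first 4 were called higher, with log2 fold changes of 9.92, 9.77, 7.53 and 7.36 (adjusted p = 0.0128, 0.00216, 0.0132 and 0.0188). Of these, il4i1 was not called without WT-7dpa replicate 2 or 3 or WT-sham replicate 1 (log2 fold change 6.87 to 7.08, adjusted p = 0.0538 to 0.0623). With no filter on low counts, or with voom and library weights, grna.2, acod1, il4i1 and igl4v8 were not called (adjusted p = 0.0584 to 0.156), and grna.1 was.

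Among the 15 that fell most were cytochrome P450 and sulfotransferase genes. The cytochrome P450 gene cyp2ad2 had 0.805, 4.103 and 4.07 CPM in WT-7dpa, against 165, 169 and 151 CPM in WT-sham (log2 fold change -5.76, SE 0.52, adjusted p = 0.000283), the sulfotransferase sult2st1 had 39.3, 26.2 and 26.3 CPM in WT-7dpa, against 356, 370.1 and 350.3 CPM in WT-sham (log2 fold change -3.55, adjusted p = 1.05e-05), and sult2st2 and cyp2y3 fell by 3.39 and 3.24 on the log2 scale (adjusted p = 5.71e-05 and 0.00404). The cyp genes as a family had 17 of 43 tested members higher and 10 lower (39.5% and 23.3%, against 27.1% and 23.4% of all tested genes). The gene klhl41 (ENSDARG00000006757) had the largest decrease of the set, with 0.035, 0.161 and 0.0961 CPM in WT-7dpa, against 5.58, 5.52 and 5.26 CPM in WT-sham (log2 fold change -5.77, adjusted p = 2.18e-05). The microtubule protein map1b, cnnm1, the GABA receptor subunit gabra4, dhx32 (ENSDARG00000077461), cpn2, sccpdh and crebrf completed the set with f7 (ENSDARG00000100782), c7b and ckmb above, and their log2 fold changes lay between -4.21 and -3.24.

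Set against the other WT-7dpa libraries, replicate 1 was low in interferon and leukocyte genes and high in red cell genes. Below the others in it were mhc2dab, grna.2, igl4v8, il4i1, acod1, cxcl11.1 and the interferon-induced mxf and ifit14, of which mxf had 0.665, 42.7 and 43.6 CPM in WT-7dpa, against 0.912, 0.526 and 0.67 CPM in WT-sham. Above the others were the globin genes hbaa2 and hbe1 (ENSDARG00000069734), and hbe1 (ENSDARG00000069734) had 642, 139.7 and 151 CPM in WT-7dpa, against 134, 165 and 112 CPM in WT-sham, and chd5, dgkh, hhatl (ENSDARG00000005139), efcab11, znfl2a and sh3gl2. In hhatl (ENSDARG00000005139) and efcab11 replicate 1 was nearest to WT-sham or between the groups, at 68.9, 8.65 and 10.8 CPM for hhatl (ENSDARG00000005139) in WT-7dpa, against 66.6, 64.4 and 63.8 CPM in WT-sham. Collagen and red cell lists had their highest median in replicate 1, and cell cycle medians were alike in all 3. What set replicate 1 apart was not tested.

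**Figure D4:**
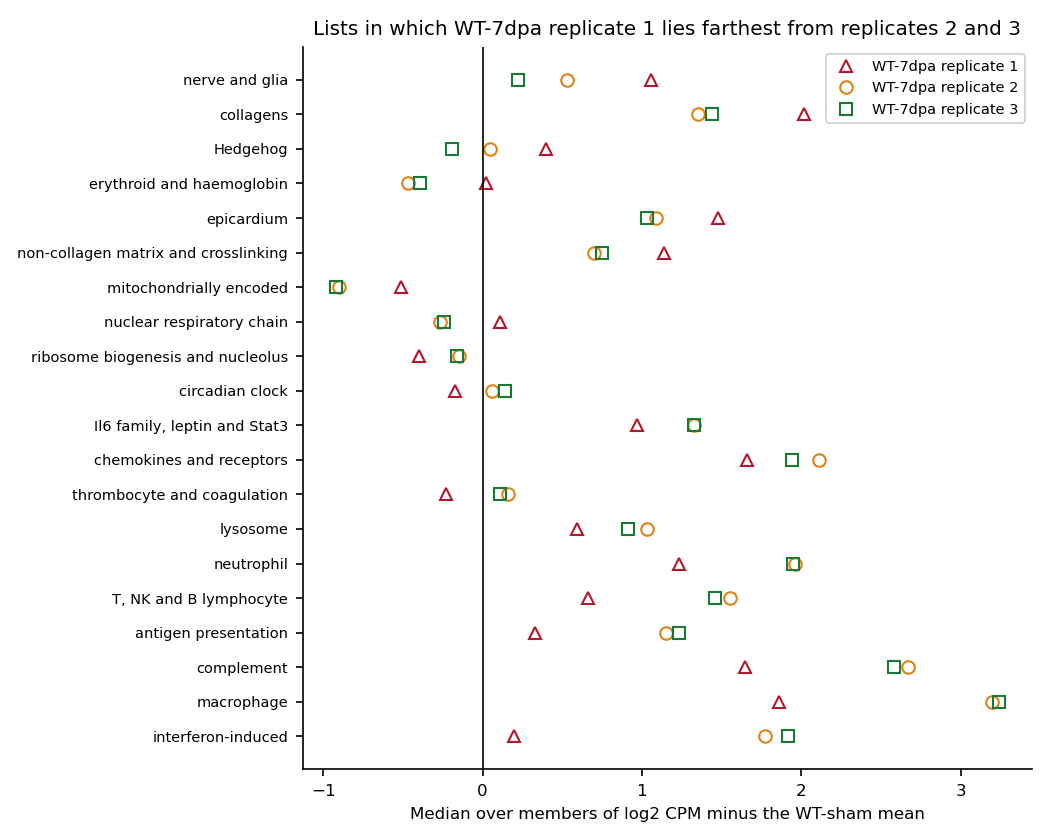
Median over the tested members of a list of log2 CPM minus the WT-sham mean, for WT-7dpa replicate 1 (triangle), 2 (circle) and 3 (square), in the 12 lists in which replicate 1 lies furthest below replicates 2 and 3 and the 8 in which it lies furthest above. Interferon-induced genes have medians of 0.20, 1.77 and 1.92, and collagens of 2.02, 1.35 and 1.44.

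The same resection in mvp mutants was compared through the difference of the 2 responses, fitted on all 12 libraries, and 5724 of 16604 genes (34.5%) were called. Cell cycle genes had 50 of 120 members called, with a median response of 1.62 in mutants and 2.30 in wild type. For cdk1 the means were 24.8 CPM in WT-7dpa, 2.08 CPM in WT-sham, 9.77 CPM in mvp-7dpa and 1.84 CPM in mvp-sham on the scaling of all 12 libraries (wild-type minus mvp log2 fold change 1.16, SE 0.21, adjusted p = 0.00101). Immediate early genes had 45 of 54 called, with a median of 0.09 in mutants. For atf3 the means were 194 CPM in WT-7dpa, 3.12 CPM in WT-sham, 348 CPM in mvp-7dpa and 559 CPM in mvp-sham (difference 6.63, SE 0.11, adjusted p = 4.88e-14), so that both mutant groups were above WT-7dpa. Interferon-induced genes had 11 of 44 called, a smaller share than the 34.5% of all genes. Their median response was 0.30 in mutants and 1.75 in wild type. The variation between replicates was 25.6% in WT-7dpa and 5.21% in mvp-7dpa, and replicate 1 of WT-7dpa was low for this list. With that spread, a low count of calls does not show that the 2 responses were alike. For isg15 the means were 44.7 CPM in WT-7dpa, 3.32 CPM in WT-sham, 4.22 CPM in mvp-7dpa and 2.77 CPM in mvp-sham (difference 3.14, SE 0.94, adjusted p = 0.0299). Within WT-7dpa, isg15 was at 9.67 CPM in replicate 1, against 61.3 and 63.1 CPM in replicates 2 and 3. Collagens had 9 of 28 called, and for col12a1 (ENSDARG00000019601) the means were 21.6 CPM in WT-7dpa, 0.573 CPM in WT-sham, 21.9 CPM in mvp-7dpa and 0.795 CPM in mvp-sham (difference 0.44, SE 0.58, adjusted p = 0.592).

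Much of the distance between the wild-type groups was also seen between WT-sham and mvp-sham, both sham-operated. This was looked at after the values were seen, and the genes had been called on the wild-type libraries, so the counts are a description. Nearness was judged on a log scale, which can differ from nearness in CPM. For nppal the means were 1.87 CPM in mvp-sham, 21.3 CPM in WT-7dpa and 0.0167 CPM in WT-sham, which counted as nearer to WT-7dpa. Of genes called higher, 2317 of 4324 (53.6%) had an mvp-sham mean nearer to WT-7dpa than to WT-sham, and of genes called lower 2351 of 3731 (63.0%). By list the share ran over 41 of 44 for immediate early, 11 of 12 for mitochondrially encoded, 20 of 25 for clock and 19 of 24 for glucocorticoid genes. It was 6 of 107 for cell cycle, 3 of 29 for interferon-induced, 2 of 17 for neutrophil, 7 of 22 for collagen and 15 of 54 for lysosomal genes. Between these lay cardiac strain genes with 16 of 22, smooth muscle and intercalated disc genes with 11 of 15 each, and endothelial genes with 24 of 35. Non-collagen matrix genes had 30 of 58, epicardial genes 17 of 38 and macrophage genes 16 of 42. For ankrd1 (ENSDARG00000075263) the mean was 53.8 CPM in mvp-sham, 66.1 CPM in WT-7dpa and 0.695 CPM in WT-sham. For fn1 (ENSDARG00000006526) it was 654 CPM in mvp-sham, 1280 CPM in WT-7dpa and 153 CPM in WT-sham. For nppb the means were 903 CPM in WT-7dpa, 69.8 CPM in WT-sham, 1110 CPM in mvp-7dpa and 938 CPM in mvp-sham, and for ckmb 29.4 CPM in WT-7dpa, 275 CPM in WT-sham, 34.3 CPM in mvp-7dpa and 33.5 CPM in mvp-sham. For hspa1b the highest mean was in mvp-sham, with 133 CPM in WT-7dpa, 4.68 CPM in WT-sham, 234 CPM in mvp-7dpa and 657 CPM in mvp-sham. The genes casq2, mb and hsp90aa1.1, higher at 7 dpa in wild type, were lower in mvp-7dpa than in mvp-sham. Their means were 809 and 1150 CPM, 9630 and 15500 CPM, and 1540 and 3200 CPM. By contrast apoeb had 5.63 CPM in mvp-sham and 6.13 CPM in WT-sham, against 81.6 CPM in mvp-7dpa and 83.2 CPM in WT-7dpa.

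A set of 15 genes were under 0.5 CPM in all 3 WT-sham libraries and at least 5 CPM in the other 9, among them mhc2dgb, mhc2dga, mhc2dhb, morn2, f13a1 (ENSDARG00000045453), grna.1 and notum2, and 2, klhl41 (ENSDARG00000006757) and si:dkeyp-94g1.1, were the reverse. The same search with WT-7dpa in place of WT-sham found 0 and 0 genes. For those genes the wild-type difference is therefore one between WT-sham and every other library, resected or sham-operated. The 2 wild-type groups share a genotype, and they alone cannot tell injury apart from whatever else set WT-sham apart. Genotype differs only in comparisons with the mvp groups.

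**Figure D5:**
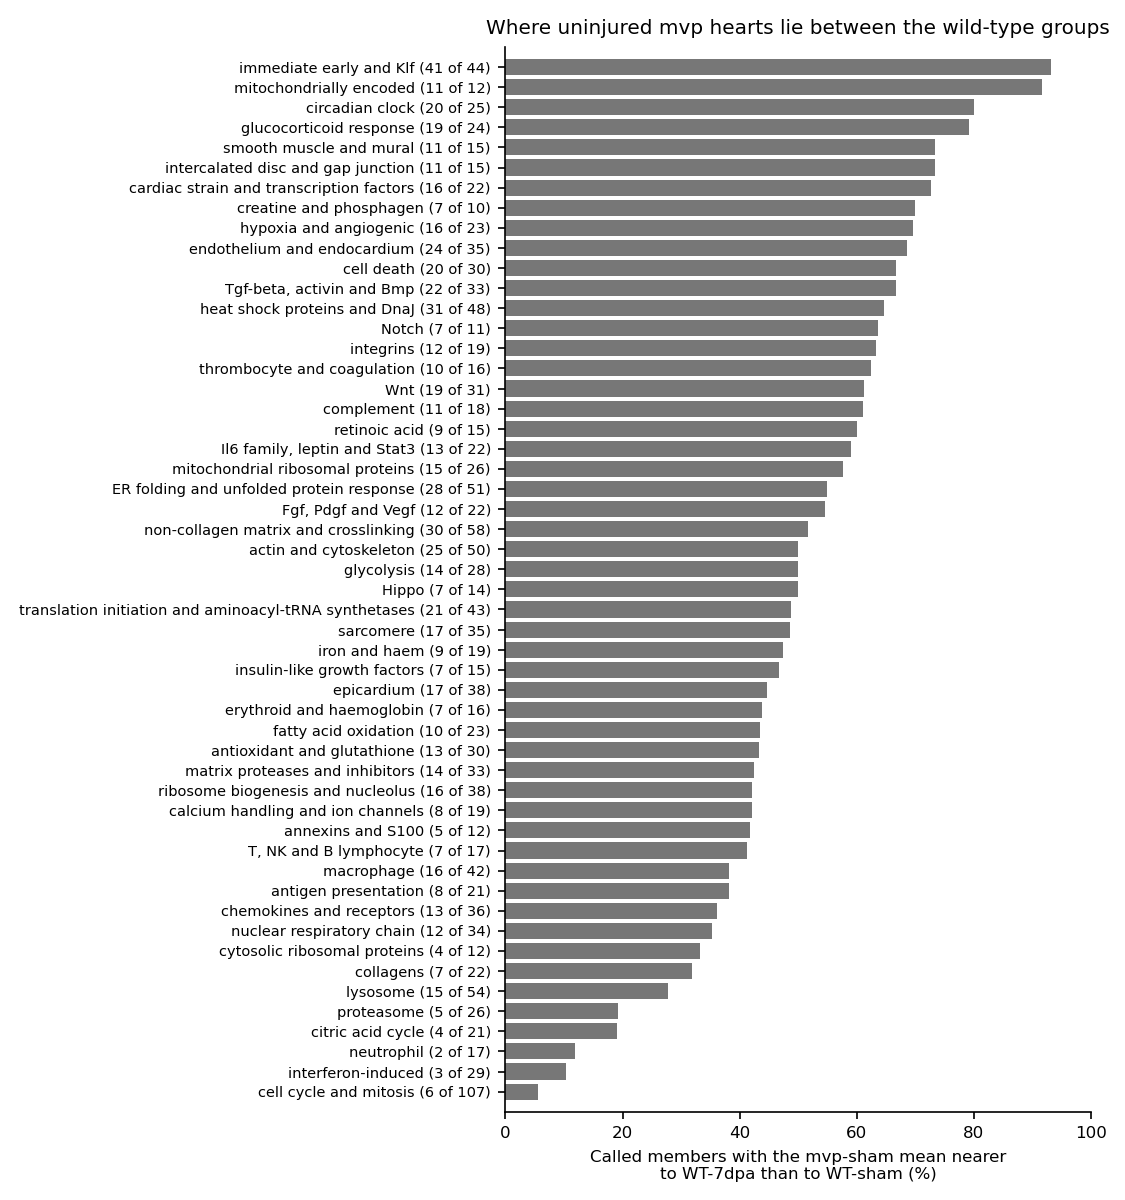
Share, in per cent, of the members called in wild type whose mvp-sham mean lies nearer to WT-7dpa than to WT-sham on a log scale, for each list with at least 10 called members (counts after the name). Immediate early genes (41 of 44) stand at one end and cell cycle genes (6 of 107) at the other.

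Of the 3 vault genes, 1 was called higher and 1 lower. The gene mvp had 189, 138 and 137 CPM in WT-7dpa, against 179.5, 192 and 182 CPM in WT-sham, and was not called (log2 fold change -0.25, SE 0.14, adjusted p = 0.15). Replicate 1 lay inside the WT-sham range and the other 2 libraries below it, and without replicate 1 mvp was called lower (log2 fold change -0.44, adjusted p = 4.74e-06). The vault RNA-binding protein tep1 had 4.06, 4.103 and 3.27 CPM in WT-7dpa, against 8.69, 7.40 and 6.39 CPM in WT-sham (log2 fold change -0.98, adjusted p = 0.00277), and the vault polymerase parp4 had 12.7, 19.3 and 16.6 CPM in WT-7dpa, against 10.6, 10.6 and 11.7 CPM in WT-sham (log2 fold change 0.57, adjusted p = 0.0192). The call of parp4 was lost without WT-7dpa replicate 2 or 3 or WT-sham replicate 1, 2 or 3 (log2 fold change 0.43 to 0.60, adjusted p = 0.0517 to 0.0783).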

How the data were processed

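RNA was taken from adult zebrafish heart ventricles, 3 libraries for each of 4 groups, and the 6 wild-type libraries carried the comparison. The authors prepared libraries with the NEBNext Single Cell/Low Input kit, sequenced them on a NovaSeq, mapped reads with HISAT2 2.1.0 to GRCz11 and counted them per Ensembl gene with featureCounts 1.6.0, and the submitters' processing notes also name FastQC 0.11.8 and SAMtools 1.10. Whole-number counts were deposited by the authors with no normalization, for 32520 genes, of which 29201 matched a symbol in the name table and 3319 did not. Strand use in counting is not given in the sources used here, so that reads of overlapping and antisense genes cannot be told apart, and counts of near-identical genes may be shared. Zebrafish genes that carry the same symbol are told apart by their Ensembl identifier.

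Counts per 1000000 (CPM) and log2 fold changes (WT-7dpa over WT-sham) were computed with edgeR 4.0.16 in R 4.3.3: filterByExpr by group, TMM scaling, the robust quasi-likelihood test and Benjamini-Hochberg adjustment over all tested genes, with a threshold of 0.05. Every adjusted p in the text comes from this test unless another is named. The difference between wild-type and mvp-/- responses was fitted on all 12 libraries. The scripts were tested on simulated data. A count of 0 was set against a floor of 3 counts per library, which covers counting error only. Alternatives were other scalings, DESeq2 1.42.0, limma 3.58.1 voom with library weights, other filters, a 2-fold minimum and all 12 libraries. Others were removal of mitochondrially encoded and globin genes, a replicate block and leaving out each library. The removal of globin genes went by symbol and left in hbe1 (ENSDARG00000069734).

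The members and the 58 gene lists were chosen with earlier results of these data known, and no list was tested as a set. The lists matched 2911 genes, and 141 list names matched none. Genes named were the 15 with the largest change in each direction among called genes with a symbol that is no clone name, at least 5 CPM in the higher group, no overlap and the same call without WT-7dpa replicate 1, anchor genes of each list and up to 3 called members with the largest change in each direction, and the 8 genes furthest apart in each direction between WT-7dpa replicate 1 and the others. Cell type markers and the 10 genes with the most counts could be named too, and si:dkeyp-94g1.1 was chosen after its values were seen. Promoter motifs and genome positions were not analysed here. Some genes are not reported here.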

Additional observations from a re-analysis of the deposited data

Results flagged for a closer look

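For 27 of the 30 genes that changed most in wild-type hearts, the response differed from that in mvp mutants by the test of the difference itself (edgeR quasi-likelihood test, adjusted p under 0.05, all 12 libraries), as it did for 34.5% of all 16604 genes tested. The genes were chosen for a large wild-type change, which enters the difference, so that a high count and the sign of the difference follow in large part from the choice. The values below are wild-type minus mvp log2 fold changes. Where WT-sham held 0 to 3 counts the fitted value depends on the prior count and is no bound. Among genes higher at 7 dpa in wild type, the difference was 11.42 for mhc2dgb, 11.20 for mhc2dga and 8.71 for mhc2dhb, which are class II histocompatibility genes. It was 11.64 for morn2 and 11.24 for igl4v8, an immunoglobulin light chain segment. The 2 genes named f13a1, the clot-stabilising transglutaminase chain, had differences of 11.18 (ENSDARG00000094832) and 11.55 (ENSDARG00000045453). The peptide gene nppal had 5.91, grna.2 and grna.1 had 7.72 and 6.63, tcnbb had 5.56, taco1 had 7.97 and the itaconate enzyme acod1 had 6.52.

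Among genes lower at 7 dpa in wild type, the difference was -5.26 for klhl41 (ENSDARG00000006757), -6.24 for cnnm1, -4.06 for map1b and -3.73 for gabra4. The clotting factor f7 (ENSDARG00000100782) had -2.26 and the complement component c7b had -4.49. The sulfotransferases sult2st1 and sult2st2 had -1.76 and -2.08, and the cytochrome P450 gene cyp2y3 had -3.05. The remaining values were -4.34 for dhx32 (ENSDARG00000077461), -2.81 for cpn2, -3.28 for sccpdh, -1.70 for crebrf and -3.27 for muscle creatine kinase ckmb. The other 3, mxb, il4i1 and cyp2ad2, did not pass the test of the difference. The mutants' own control was mvp-sham. On a log scale its mean lay nearer to WT-7dpa than to WT-sham in 9 of the 15 genes that rose and 11 of the 15 that fell. The part that the distance between WT-sham and mvp-sham played was not tested.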

How the results depend on the processing

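With library totals alone, 7117 genes were higher and 1671 lower, and with a 2-fold minimum 2813 and 1406. Under the other settings the counts stayed within 1.5 times. They were 4468 and 3420 with DESeq2, 4367 and 3685 with its size factors, and 5547 and 5446 with voom. With all 12 libraries they were 5227 and 4614, and with no filter 4539 and 3576. With at least 10 counts in every library they were 3459 and 3034. Without mitochondrial and some globin genes they came to 4315 and 3734. Leaving out 1 library at a time gave 3385 to 5660 higher and 2672 to 5382 lower, and 4741 to 8490 genes for the wild-type minus mvp difference, which was 5620 with DESeq2. The replicate block gave 3994 and 3340 (5451 for the difference). Same-numbered WT-7dpa and WT-sham libraries had correlations of deviations of -0.029, -0.034 and -0.011. With 3 libraries per group, and WT-7dpa replicate 1 apart, these values cannot decide whether same-numbered libraries were handled together. The labels do not say. Under the block irf7 and mxf lost their call (adjusted p = 0.0822 and 0.0642), and no other named gene did.

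List medians of at least 0.2 in size (log2) that turned with library totals alone were sarcomere (0.16), calcium handling (0.036), citric acid cycle (0.052), fatty acid oxidation (0.080), red cell (0.10), skeletal muscle (0.020), ribosome biogenesis (0.13), insulin-like growth factor (0.099) and vault (0.12) genes, since that scaling moved all genes upward. Another 10 smaller medians turned with it as well, among them nuclear respiratory chain (0.25), cardiac strain (0.25), glycolysis (0.28) and endothelial (0.31) genes. The coagulation median turned to -0.18 with at least 10 counts in every library and to -0.18 without WT-7dpa replicate 2, the lowest of -0.18 to 0.38 with 1 library left out. With at least 10 counts in every library the cell cycle and chemokine medians of 2.30 and 2.26 came to 1.502 and 1.28. The glucocorticoid median turned to -0.037 with DESeq2 and -0.032 with no filter. The skeletal muscle median, over 9 tested genes, was unstable: 1.41 with DESeq2, 1.37 with no filter, 0.26 with all 12 libraries, 0.83 without WT-7dpa replicate 1, and 1.13, 0.041 and 1.09 without WT-sham replicates 1, 2 and 3 (-0.54 without WT-7dpa replicate 3, the lowest with 1 library left out, and -0.56 with at least 10 counts in every library). The cause of the turns in the coagulation, glucocorticoid and skeletal muscle medians was not tested. Of 204 named genes, 178 kept their direction and side of the threshold with library totals alone, 184 with voom and 193 with no filter.

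Depth was alike in the 2 groups, and low genes near the floor of 3 counts have the least precise fold changes. The spread was wider in WT-7dpa, where replicate 1 stood apart, and 16 named genes that were not called with all 6 libraries were called without that library. Those calls rest on WT-7dpa replicates 2 and 3 only, which were close to each other, and are not firmer than calls with all 6 libraries.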
